A study of Homo sapiens with 8 samples.

Results

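The regions described here are the tallest pileups of CENP-B ChIP-seq signal on the assembled chromosomes 1 to 22 of U2OS cells. They were chosen by the control values: the members are the 1 kb windows, counted from position 1 of each chromosome, in which the control coverage averaged at least 500 reads per base over all 1000 bases. This rule found 390 windows among the 35122 with any control coverage, or 1.11% of them. U2OS is a human osteosarcoma cell line, and the comparison was between control (WT) cells and ERCC6L2-/- (KO) cells, a CRISPR/Cas9 knockout line grown from a single cell in the same medium. Chromatin cut with micrococcal nuclease was precipitated with a CENP-B antibody, with 3 immunoprecipitates and 1 input of each genotype. The deposited coverage holds 1 pooled value per base for each genotype, inside peaks that were called separately in control and in ERCC6L2-/- cells, so there is no replicate spread and no test was possible. A window is at 0 where no peak of that genotype was listed, which does not mean that no read was found there. Because the control value chose the windows and is also the denominator of every KO/WT ratio below, both are given as descriptions.

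CENP-B is a centromere protein that binds a short DNA motif, the CENP-B box, present in many copies of alpha-satellite DNA. Alpha satellite consists of AT-rich repeat units arranged head to tail, grouped into higher-order repeats that recur over long arrays at each centromere. Reference assemblies hold these arrays in part as models, and short reads from near-identical copies cannot be placed uniquely in them. ERCC6L2 is a member of the SNF2 family of ATPases, and the study asked how its loss alters centromeric chromatin.

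To show what lies under the pileups, the 171 bases centred on the control summit, or on the base aligned with it, are given for 7 places, read from the plus strand of GRCh38 and named by position. The first 3 are the windows with the highest control level or the highest single base, the next 2 have a high control level and no listed ERCC6L2-/- coverage, the sixth holds no box in its whole cluster, and the last is a sequence that 3 chromosomes share. Capitals mark the CENP-B box, searched on both strands as its core: TTCG, any 4 bases, A, any 2 bases, CGGG.
chr20:28494790-28494960: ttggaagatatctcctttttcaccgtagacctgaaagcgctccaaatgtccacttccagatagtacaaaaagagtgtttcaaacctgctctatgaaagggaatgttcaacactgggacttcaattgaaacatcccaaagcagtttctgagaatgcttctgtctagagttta
chr17:26883980-26884150: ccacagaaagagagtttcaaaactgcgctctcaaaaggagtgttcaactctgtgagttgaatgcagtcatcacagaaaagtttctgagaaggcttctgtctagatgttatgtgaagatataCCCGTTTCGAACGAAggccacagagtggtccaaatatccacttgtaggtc
chr10:39967543-39967713: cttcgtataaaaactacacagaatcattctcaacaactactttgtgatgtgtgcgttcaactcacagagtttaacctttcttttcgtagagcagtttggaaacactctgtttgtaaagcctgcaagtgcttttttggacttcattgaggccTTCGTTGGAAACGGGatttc
chr4:49708160-49708330: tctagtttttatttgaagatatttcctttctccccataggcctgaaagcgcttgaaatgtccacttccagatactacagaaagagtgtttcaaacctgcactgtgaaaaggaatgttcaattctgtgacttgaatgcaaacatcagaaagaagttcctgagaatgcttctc
chr16:34730042-34730212: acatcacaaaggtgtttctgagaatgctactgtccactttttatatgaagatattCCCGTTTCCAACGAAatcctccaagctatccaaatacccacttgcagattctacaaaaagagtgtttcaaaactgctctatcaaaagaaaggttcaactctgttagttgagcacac
chr1:125180108-125180278: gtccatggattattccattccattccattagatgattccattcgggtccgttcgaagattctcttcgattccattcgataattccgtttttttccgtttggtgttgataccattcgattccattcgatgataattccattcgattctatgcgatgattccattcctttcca
chr19:26782624-26782794: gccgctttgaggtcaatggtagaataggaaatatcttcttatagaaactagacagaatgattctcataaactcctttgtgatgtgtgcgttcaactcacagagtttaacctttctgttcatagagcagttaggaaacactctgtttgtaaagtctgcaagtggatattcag
The chr17, chr10 and chr16 sequences hold a box near the summit, whereas the other sequences hold none within these 171 bases. Among the 18 clusters named by the rule for this report, 9 had a box within 85 bases of the control summit. Over all pileups, 169 summits (43.3%) had a box within the same distance, against 44.6% of the summits of other covered windows. The highest signal was thus not placed on a box more often than elsewhere at this scale. The median distance from summit to the nearest box was 94 bases in the pileups and 92 bases in the other windows.

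The pileups were few, but they took a large part of the signal. They held 18.4% of the control coverage and 18.2% of the ERCC6L2-/- coverage on chromosomes 1 to 22. Their control level had a median of 876 reads per base and ran from 500.3 to 44823, while the other covered windows had a median of 80.7. In ERCC6L2-/- cells the same windows had a median of 444 reads per base and a highest value of 16055, against a median of 31.5 elsewhere. The threshold cut through a continuous range. The 5 windows just above it had between 500.3 and 501.2 reads per base, and the 5 just below had between 498.1 and 499.3. Above it, 176 windows reached 1000 reads per base, 27 reached 5000 and 12 reached 10000. In ERCC6L2-/- cells the corresponding numbers were 86, 11 and 4.

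The tall windows of the knockout were nearly all tall in the control as well. In ERCC6L2-/- cells 180 windows reached 500 reads per base, and 171 of them were pileups of the control, which is 43.8% of the control list and 95.0% of the knockout list. The remaining 9 had control levels of 452 to 496, just under the threshold. They lay on chromosomes 1, 5, 12 and 19. This overlap was largely set by the scale of the deposited values. Among windows above 0 in both groups, only 18 pileups and 2.31% of the other windows were higher in the knockout. A window that reached 500 there and was not higher than in the control had to reach 500 in the control.

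**Figure D1:**
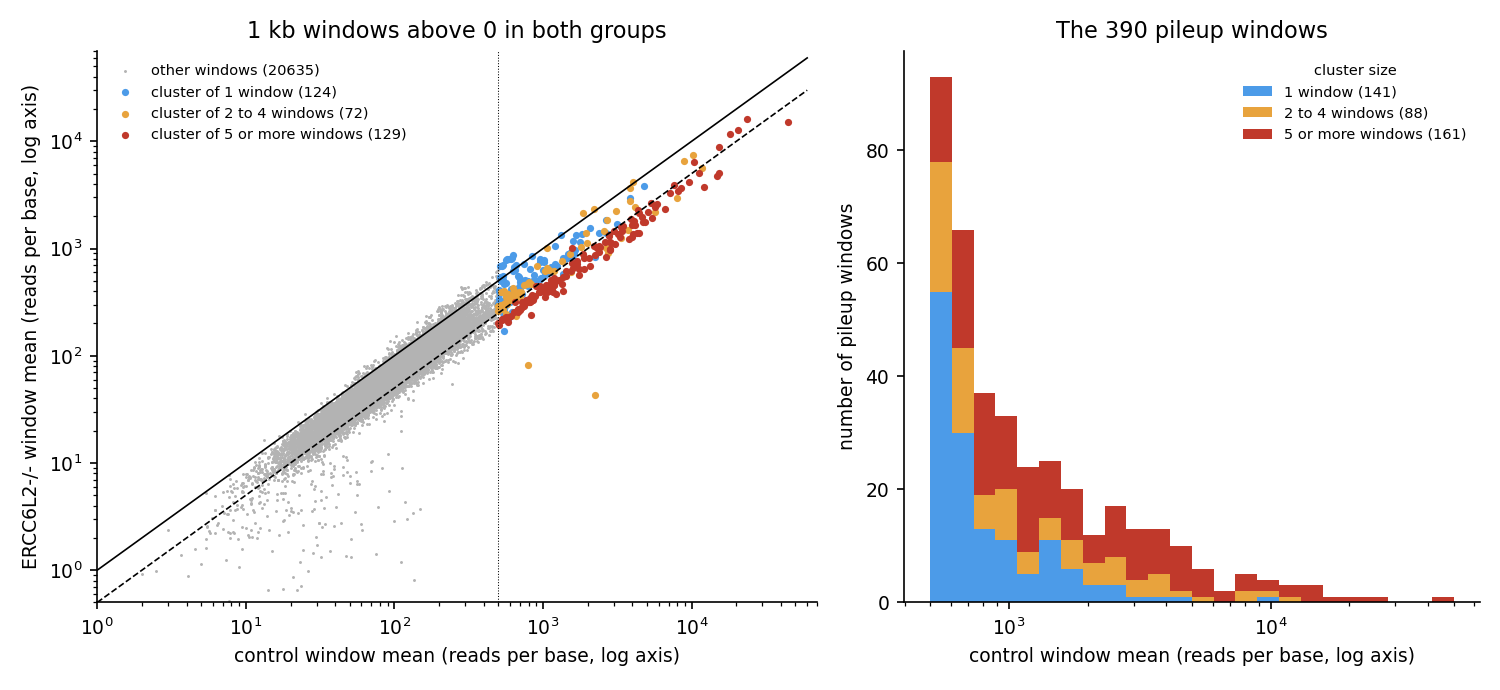
Left, mean coverage of each 1 kb window above 0 in both groups, control on the x axis and ERCC6L2-/- on the y axis (reads per base, log axes); the solid line marks equal values, the dashed line a ratio of 0.5 and the dotted line the threshold of 500. Right, number of pileup windows by control level (log axis), coloured by the size of the cluster each belongs to. Nearly all pileups lie below the line of equal values, those of large clusters lie lowest, and 18 lie above it.

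Pileups clustered strongly. Windows at most 5 kb apart on a chromosome were joined, which gave 191 clusters. Of these, 141 were single windows, 37 held 2 to 4 windows and 13 held 5 or more, size classes that were set after the values were seen. The 13 large clusters held 161 windows and 62.7% of the control coverage in pileups, whereas the 141 single windows held 17.8%. The 5 clusters with most coverage held 42.0% and the 10 with most held 57.8%. Of the 371 steps from a pileup to the next on its chromosome, 148 were to the adjacent window, and the median step was 4000 bases.

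Most pileups lay in centromeric arrays, defined here as runs of adjacent 100 kb bins with at least 10 CENP-B boxes each. In all, 374 pileups (95.9%) were in such bins, against 99.9% of the other covered windows. The 16 outside formed 5 clusters, at chr1:125179001-125183000, chr10:41839001-41842000, chr16:34620001-34626000, chr16:34730001-34731000 and chr17:26880001-26886000. None of the 191 clusters overlapped a gene of GENCODE release 44, and the median distance to the nearest gene was 1123471 bases. Chromosome 9 had 67 pileups, chromosome 7 had 46 and chromosome 10 had 40, while chromosomes 8 and 14 had none and chromosome 6 had no listed coverage.

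**Figure D2:**
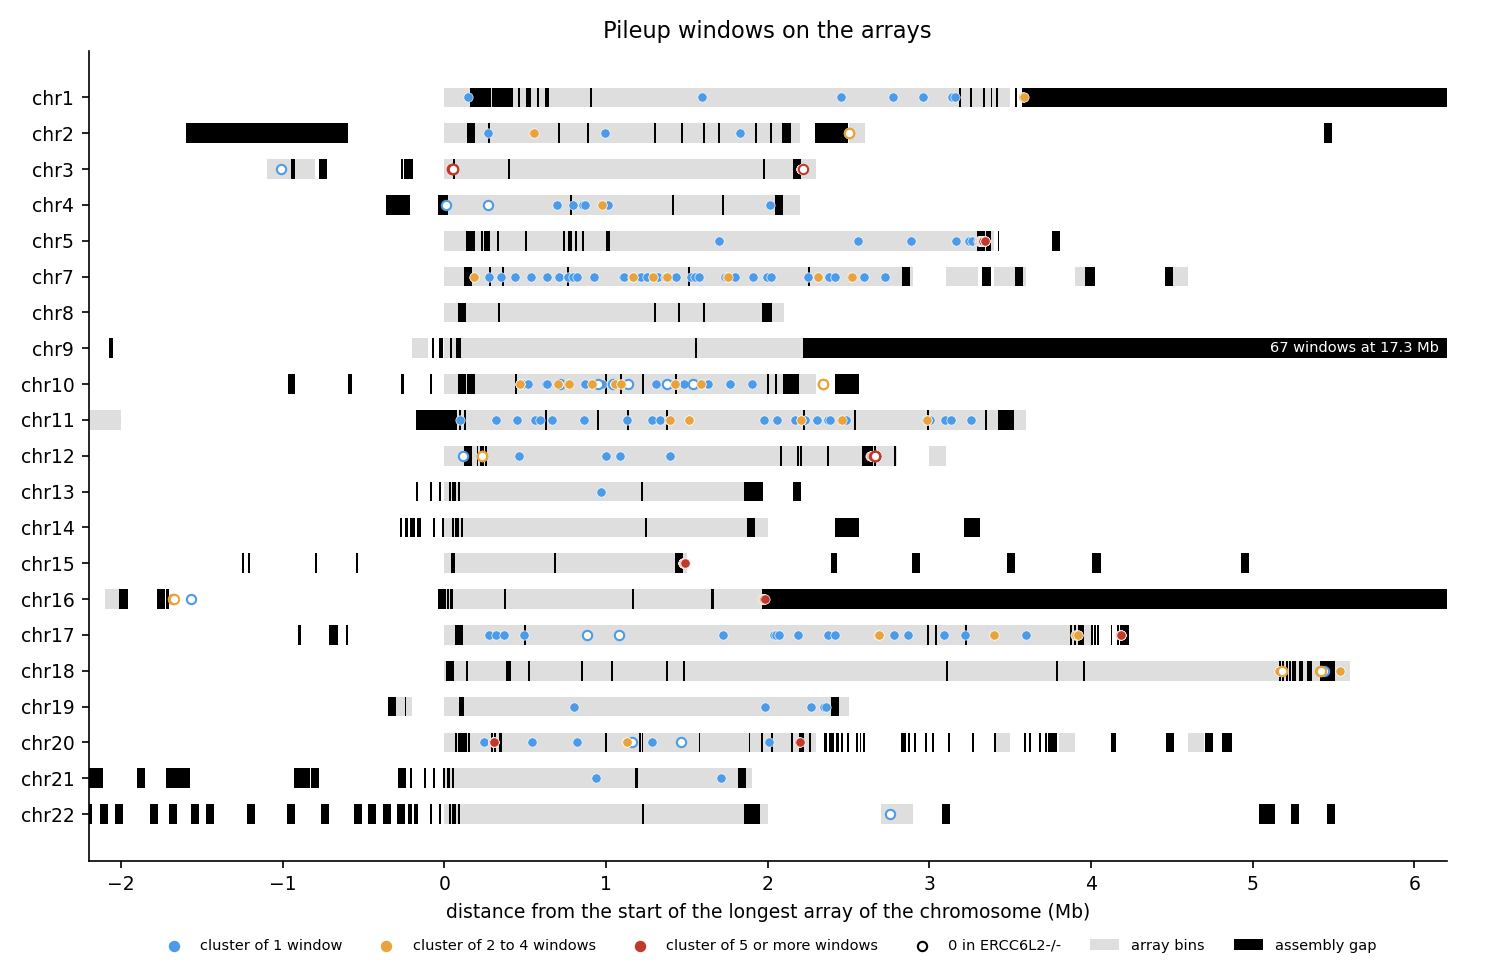
Position of each pileup window on its chromosome, as the distance (Mb) from the start of the longest array; grey bars are array bins, black bars are assembly gaps (gaps shorter than 12 kb are drawn 12 kb wide), and open circles are windows at 0 in ERCC6L2-/-. Single windows spread along the arrays of chromosomes 7, 10, 11 and 17, most large clusters sit beside gaps, and the 67 windows of chromosome 9 lie off the axis, 17.3 Mb from the start.

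Taken over all chromosomes together, pileups lay closer than other windows to assembly gaps, runs of at least 100 undetermined bases. A gap lay within 10 kb of 138 pileups (35.4%), compared with 4.89% of the other covered windows. The median distance was 42524 bases for pileups and 173913 bases for other windows, and 27 pileups touched or overlapped a gap. Within chromosomes the contrast varied, and pileups had the larger median on chromosomes 2, 7 and 22. The medians were 167736 and 140858 bases on chromosome 7, and 75765 and 80245 bases on chromosome 10. On chromosome 5 they were 949 and 571592 bases. Closeness rose with the control level. Within 10 kb of a gap were 16.8% of the 214 windows from 500 to 1000 reads per base, 33.3% of the 87 from 1000 to 2000, 77.4% of the 62 from 2000 to 5000 and 92.6% of the 27 above 5000. Large clusters carried most of this. Of the 13, 11 lay within 10 kb of a gap and 9 touched one, and the median distance of their windows was 4746 bases against 114705 bases for single windows. Without the large clusters, 18.8% of pileups were within 10 kb of a gap.

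**Figure D3:**
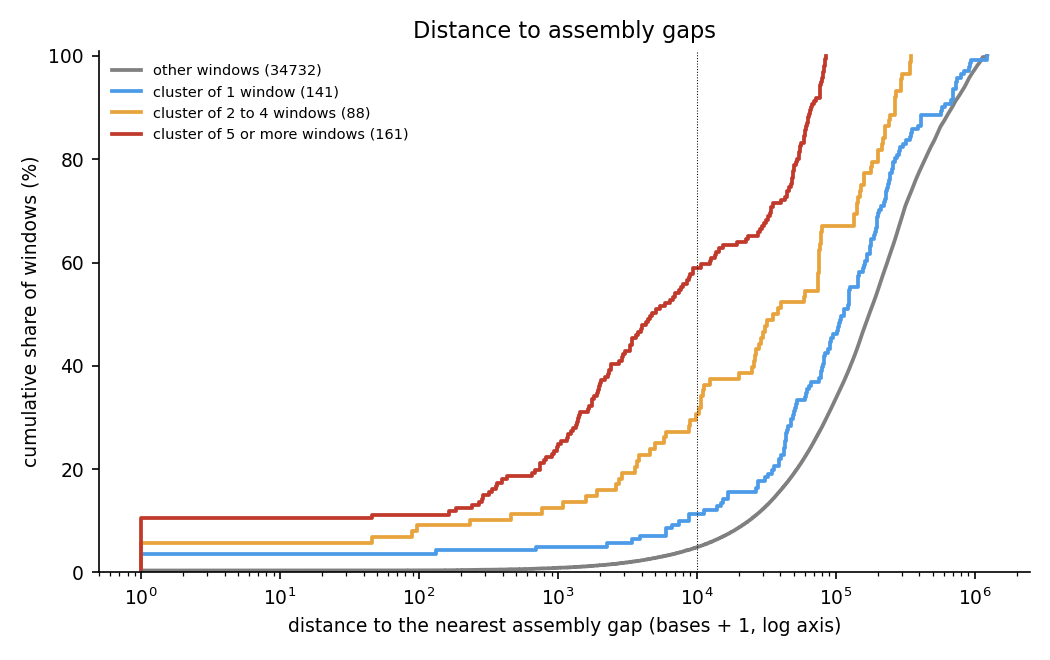
Cumulative share of windows (y axis, %) by distance to the nearest assembly gap (x axis, bases plus 1, log axis), for other covered windows and for pileups in clusters of 3 sizes; the dotted line marks 10 kb. The curve of large clusters lies farthest to the left and that of other windows farthest to the right.

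Pileups also lay in short stretches of control coverage. In all, 45.4% were in uninterrupted runs of covered windows shorter than 100 kb, compared with 5.89% of the other windows, a length that was set after the values were seen. Of all covered windows in such short runs 7.97% were pileups, against 0.647% in longer runs. Some chromosomes had only short runs at their pileups. Chromosomes 3 and 15 had 21 and 17 covered windows in all, of which 16 and 12 were pileups. On chromosome 10, with 40 pileups, no run that held one was longer than 70 kb. Run lengths were not compared within chromosomes. Most pileups in short runs were not separate from the arrays, since 161 of the 177 lay in array bins.

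The sequence of pileups was alpha satellite in most windows. Pooled over chromosomes, it was less repeated in the reference than that of other windows. A pileup held a median of 2 CENP-B boxes and other windows 3. At least 1 box was present in 95.4% of pileups and 99.3% of other windows. The median GC content was 38.5% and 39.0%, and the identity of a window with itself at a shift of 169 to 173 bases, about 1 satellite unit, was 50.8% and 50.1%. These features hardly distinguished the 2 sets. Words of 150 bases did so when chromosomes were pooled. On average 34.5% of the words of a pileup occurred once in the reference, compared with 14.1% in other windows. They were counted over 194 sequences and both strands. For words of 50 bases the shares were 12.6% and 2.98%. Within chromosomes the contrast for words of 150 bases varied. The median shares in pileups and other windows were 53.1% and 26.2% on chromosome 12, and 15.9% and 10.9% on chromosome 7. On chromosome 11 they were 24.7% and 26.9%. Pileups also had the lower median on chromosomes 3, 4 and 15, and both medians were 0 on chromosomes 1, 13, 19, 21 and 22.

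The 18 pileups without a box (4.62%, against 0.691% of other windows) lay on 9 chromosomes, 6 of them on chromosome 5. Of these, 4 were rich in GGAAT, the unit of satellites II and III, with more than 20 copies per window on either strand. Only 6 of the 34732 other windows were as rich. The cluster at chr1:125179001-125183000 supplied 3, with 47 to 49 copies per window, and chr5:49602001-49603000 the other, with 112. All 4 were higher in ERCC6L2-/- than in control cells, with ratios of 1.04, 1.04, 1.15 and 1.05. Neither place held a box, and both lay beside gaps, at 1587 and 131 bases.

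Pooled over chromosomes, the KO/WT ratio of pileups was lower than that of other windows. Of the 390, 325 were above 0 in both groups, with a median ratio of 0.535 (interquartile range 0.405 to 0.614), while the 20635 other windows had a median of 0.643 (0.561 to 0.795). Under 0.5 were 144 pileups (44.3%), compared with 8.29% of all windows above 0 in both groups. None was over 2, compared with 0.00477% of all such windows. Members at 0 in ERCC6L2-/- were 65 (16.7%), fewer than the 40.3% of all control windows. Summed over windows above 0 in both groups, the ratio was 0.508 in pileups and 0.678 elsewhere. With windows at 0 included the sums gave 0.463 and 0.466, so the share of total signal in pileups was nearly the same in both genotypes. The depth of the libraries is unknown and no scaling is stated. When each group was divided by its total on chromosomes 1 to 22, the median ratio of pileups became 1.15 and that of other windows 1.38. Then 2 pileups (0.615%) were under 0.5, against 0.615% of all windows, and 25 (7.69%) were over 2, against 5.52%. Only the relation between the 2 sets, not the direction of either, does not depend on the scale.

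Low ratios were most frequent in the large clusters. Their 129 windows above 0 in both groups had a median ratio of 0.403, and 120 of them were under 0.5. The 124 single windows had a median of 0.607, and 9 were under 0.5. Clusters of 2 to 4 windows had 0.569. Chromosome 9, where the other windows also had a median of 0.409, supplied 48 of the 129. The order could be checked within the 5 chromosomes that had both large and smaller clusters. On chromosome 5 the ratios ran from 0.369 to 0.526 in the 25 windows of large clusters and from 0.615 to 1.39 in the 7 others, and on chromosome 12 from 0.394 to 0.437 in 10 and from 0.614 to 0.998 in 4, without overlap. The ranges overlapped on chromosome 20, with medians of 0.375 and 0.544, and on chromosome 17, with 0.627 and 0.740. On chromosome 16 the medians were alike, at 0.394 and 0.392. The direction was the same at each control level when chromosomes were pooled. These sets were not matched by chromosome. The 48 windows of chromosome 9, none above 2036 reads per base, were among the large clusters. From 500 to 1000 reads per base the median ratio was 0.402 in the 37 windows of large clusters and 0.602 in the 129 others. From 2000 to 5000 it was 0.404 in 37 and 0.582 in 22, and above 5000 it was 0.437 in 21 and 0.483 in 5. Within large clusters the ratio thus scarcely moved with height.

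Against nearby windows the result differed with cluster size. For the 250 pileups with at least 10 other windows within 50 kb on either side, the ratio of a pileup to the median of those neighbours had a median of 1.02, and 108 were below their neighbours. In large clusters 62 of 76 were below, with a median of 0.950, whereas 32 of 117 single windows were below, with a median of 1.08. The other 75 pileups above 0 in both groups had too few neighbours for this comparison. Their median KO/WT ratio was 0.395, and 58 of them were under 0.5. Against the whole chromosome, 156 of 325 were below the median of the other windows. In runs of at least 100 kb 38.3% of pileups were under 0.5, compared with 7.09% of the other windows there. These sets were pooled over chromosomes. Of the 72 pileups under 0.5 in such runs, 48 lay on chromosome 9, where 98.2% of the other windows were also under 0.5.

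The comparison with the same chromosome gave different directions on different chromosomes. On chromosomes 5, 12, 16 and 20 the median ratio of pileups was lower than that of the other windows. On chromosome 12 the median ratio was 0.432 in 14 pileups and 0.816 in 2349 other windows, and on chromosome 16 it was 0.393 in 9 and 0.799 in 742. On chromosome 5 it was 0.472 in 32 and 0.668 in 1513, and on chromosome 20 it was 0.449 in 22 and 0.550 in 793. Pileups outside the large clusters did not share this on chromosomes 5 and 12. Their medians were 1.05 in 7 windows of chromosome 5 and 0.917 in 4 of chromosome 12. On chromosome 20 the 9 such windows had 0.544. On chromosomes 7 and 9 the 2 sets were close. Chromosome 7 had medians of 0.571 in pileups and 0.575 elsewhere, and chromosome 9 had 0.401 and 0.409. On chromosomes 10 and 11 most pileups were above the median of the other windows. Chromosome 10 had medians of 0.562 and 0.506, with 2 of 31 pileups below the latter. Chromosome 11 had 0.577 and 0.552, with 9 of 34 below. On chromosomes 1, 4, 17 and 19 the pileups also had the higher ratios. For chromosome 1 the medians were 1.05 against 0.667, for chromosome 4 they were 0.955 against 0.799, for chromosome 17 they were 0.734 against 0.644, and for chromosome 19 they were 1.30 against 0.668. On chromosomes 3, 15 and 18 pileups held nearly all ERCC6L2-/- coverage of the chromosome, 99.6%, 97.0% and 98.3%, and left 1, 4 and 2 other windows to compare with. Chromosomes 2, 13 and 21 had few pileups above 0 in both groups. Their medians were 0.725 in 5 pileups against 0.658, 0.757 in 1 against 0.806 and 0.795 in 2 against 0.806. The single pileup of chromosome 22 was at 0 in ERCC6L2-/- cells.

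**Figure D4:**
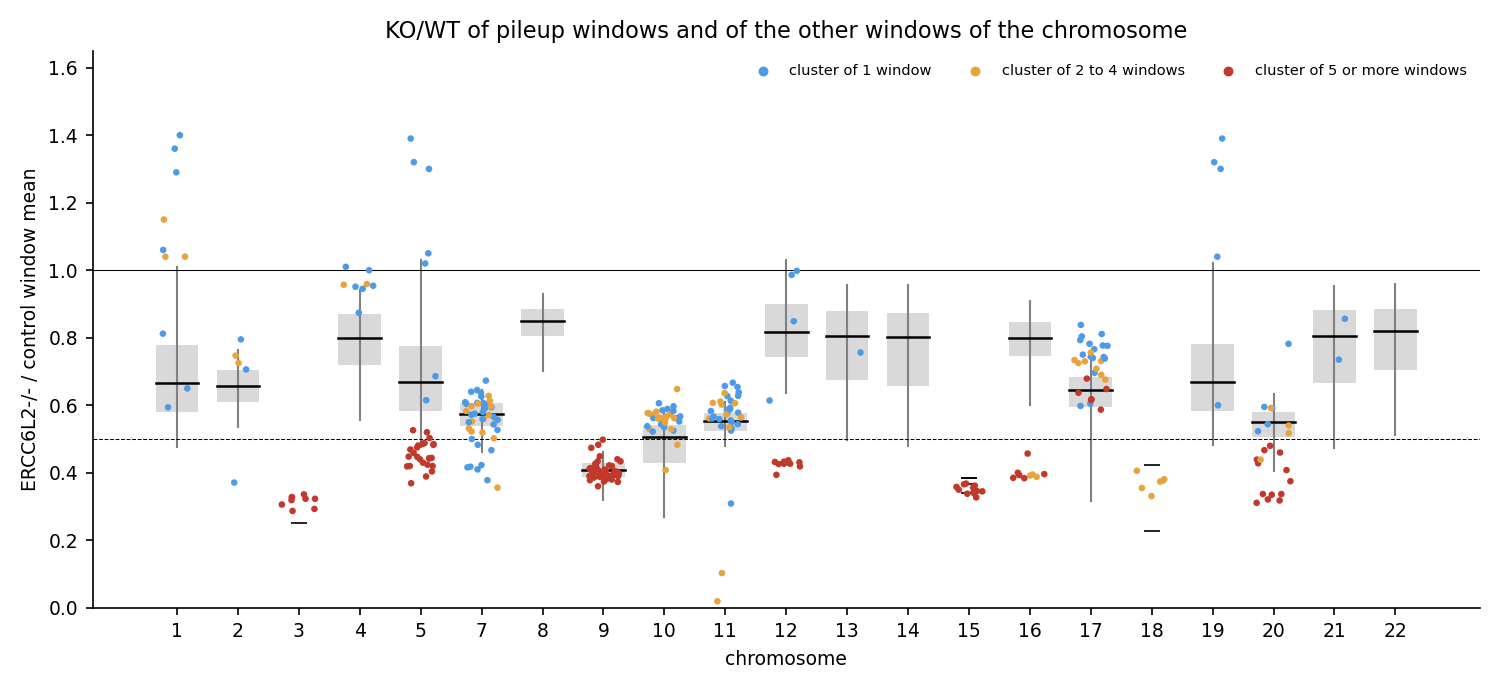
KO/WT ratio of window means (y axis, linear) by chromosome (x axis). Coloured points are pileups by cluster size; grey boxes span the quartiles of the other windows, black lines their median and thin lines the 5th to 95th percentile, and dashes are single windows where fewer than 20 exist. Large clusters of chromosomes 5, 12, 16 and 20 lie below the boxes, and single windows of chromosomes 1, 5 and 19 lie above them at 1.29 to 1.40.

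The tallest cluster was chr20:28494001-28499000, 5 windows of alpha satellite next to a 100-base gap. Control means ran from 4397 to 44823 reads per base and ERCC6L2-/- means from 1398 to 15111, and the cluster averages were 18273 and 6027. Its ratio was 0.330, against 0.550 in the other windows of the chromosome. The control summit of 81923 reads fell at chr20:28494875 and the ERCC6L2-/- summit of 27752 at chr20:28495520, both within the same block of close peaks. A second large cluster on that chromosome, chr20:26600001-26608000, had averages of 2949 and 1223 and a ratio of 0.415.

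The cluster at chr17:26880001-26886000 was nearly as tall and kept more of its signal. It lay 180000 bases beyond the array bins, and its 6 windows averaged 14928 reads per base in control and 9475 in ERCC6L2-/- cells. The ratio of 0.635 was close to the 0.644 of the other windows on the chromosome. Both genotypes had their summit at chr17:26884065, with 84932 and 61301 reads, the latter the highest ERCC6L2-/- value on chromosomes 1 to 22. Another 4 places on chromosome 17 were among the 10 tallest clusters. These were chr17:26619001-26621000 with a ratio of 0.729, chr17:26603001-26605000 with 0.730, chr17:25920001-25921000 with 0.793 and chr17:23016001-23017000 with 0.776. All 4 were above the chromosome's median, and pileups held 77.5% of its control coverage and 87.9% of its ERCC6L2-/- coverage.

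The highest single base was at chr10:39967628, with 90483 reads in control, and ERCC6L2-/- cells had 41865 there. The cluster around it, chr10:39966001-39969000, consisted mainly of that single narrow peak: its 3 control means ran from 692 to 11759 and its ERCC6L2-/- means from 367 to 5684. The ratio of 0.478 was near the 0.506 of the chromosome. On chromosome 5, chr5:49642001-49647000 averaged 4740 and 2079, a ratio of 0.439. Its neighbour chr5:49609001-49634000, with 20 windows, averaged 3070 and 1445, a ratio of 0.471. On chromosome 18, chr18:20561001-20565000 averaged 4169 and 1574, with a ratio of 0.378.

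**Figure D5:**
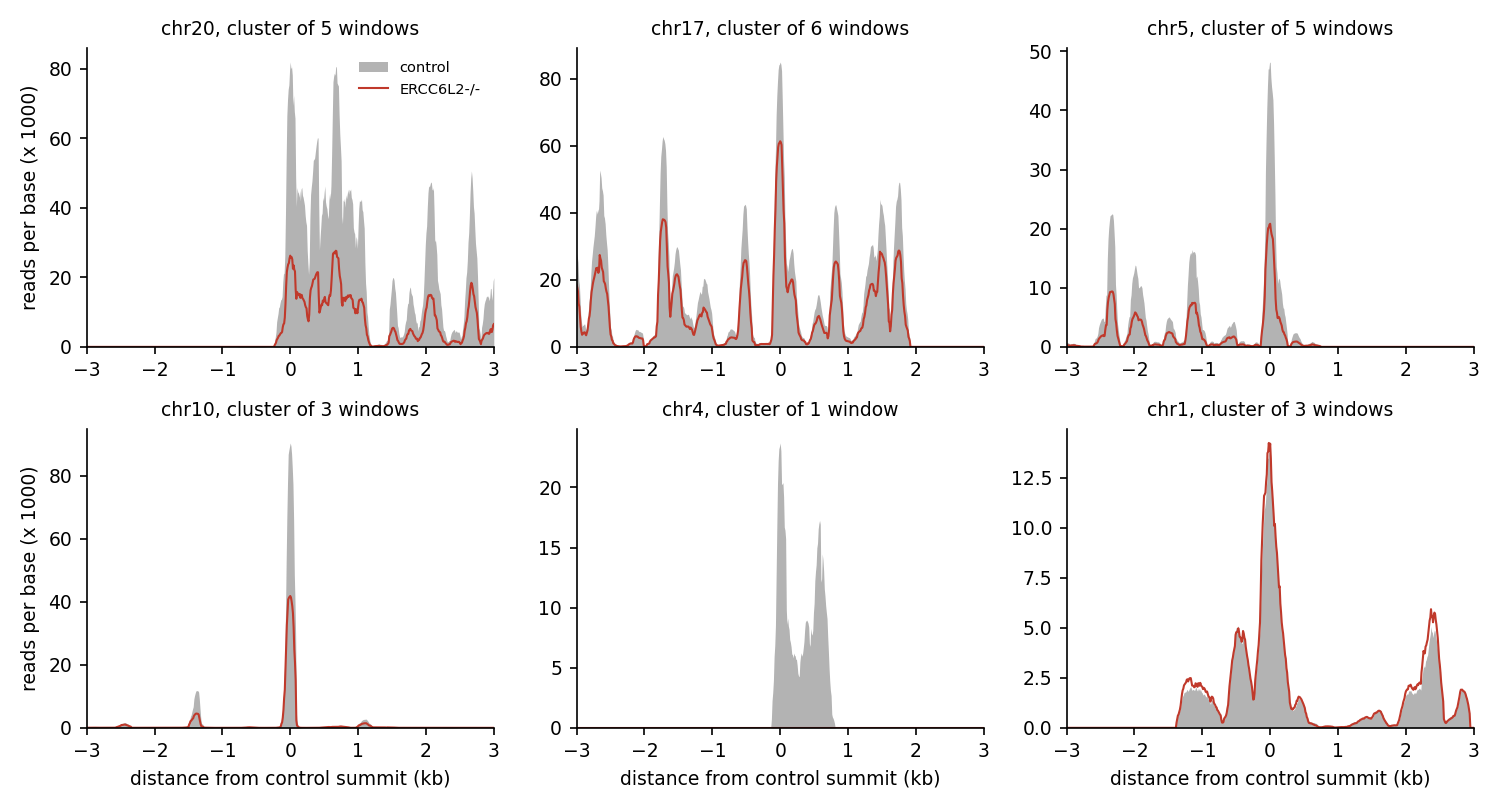
Coverage per base (y axis, in units of 1000 reads) within 3 kb of the control summit (x axis, kb) in 6 clusters, sampled every 10 bases, control in grey and ERCC6L2-/- in red. The tallest peaks appear in both groups at different heights on chromosomes 20, 17, 5 and 10, the chromosome 4 window has no ERCC6L2-/- value, and the chromosome 1 cluster is slightly higher in ERCC6L2-/-.

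Summits mostly fell at the same place in both genotypes. In 282 of the 325 pileups above 0 in both (86.8%) the ERCC6L2-/- summit fell within 10 bases of the control summit, and in 185 on the same base, while in 43 it lay farther away. In other windows the first share was 60.2%. The summits were narrow, with a median width of 148 bases at 50% of the height, against 175 bases elsewhere. The highest base of a pileup was a median of 5.16 times the window mean, against 2.87 times elsewhere. The same control values chose the windows, and a tall peak raises the window mean, so part of this contrast follows from the choice. With the window median in place of the mean, 134 windows reached the threshold, so some windows had raised coverage over much of their length. The typical pileup nonetheless had a highest base far above its window mean.

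Chromosome 9 differed from this. All of its 67 pileups fell in chr9:60552001-60687000, in a second array past the 15000000-base gap, and formed 3 clusters. Control coverage was high throughout, with a median of 498 reads per base over its 135 windows, so that the threshold divided a continuous domain. The first cluster, chr9:60552001-60612000, had 32 windows, a mean of 936 in control and 380 in ERCC6L2-/- cells, and a ratio of 0.406. The second, chr9:60618001-60644000, had 16 windows and a ratio of 0.410. The third, chr9:60652001-60687000, had 19 windows averaging 837 in control and none with ERCC6L2-/- coverage. The listed ERCC6L2-/- coverage ended at chr9:60651246, while the control coverage went on to 60688432. In the 20 windows before that end the medians were 441 in control and 174 in ERCC6L2-/- cells, and in the 20 windows after it the control median was 529. The ERCC6L2-/- value thus went to 0 where the listed region ended, while the control level stayed as high. These pileups held 71.8% of all ERCC6L2-/- coverage on chromosome 9 and 23.4% of the control coverage.

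Other pileups at 0 in ERCC6L2-/- cells were of the same kind, in that none of the 65 had any base listed in the knockout. They made up 27 clusters in whole or in part. On chromosome 12, the cluster chr12:37235001-37267000 had 10 windows with ERCC6L2-/- coverage and 7 without. The medians where it was listed were 3894 in control and 1681 in ERCC6L2-/- cells, and where it was not listed the control median was 697. In the cluster chr3:91548001-91554000 all 5 windows were at 0 against control means of 608 to 3710. The tallest of all was chr4:49708001-49709000, which touched a 50000-base gap and had 9089 reads per base in control and 0 in ERCC6L2-/- cells. The nearest listed ERCC6L2-/- base was 35444 bases away.

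Windows that the reference holds only once were at 0 in the knockout more often. In 32 pileups at least 90% of the words of 150 bases were unique, a share that was set after the values were seen, and 19 of them (59.4%) were at 0 in ERCC6L2-/- cells. In the 358 others, 46 (12.8%) were at 0. The same order appeared in the other covered windows, where 77 of 100 with such unique sequence (77.0%) and 40.5% of the rest were at 0. Clusters outside the arrays were prominent here: chr10:41839001-41842000, with control means of 570 to 1609, chr16:34620001-34626000, with 632 to 1684, and chr16:34730001-34731000, with 2010, consisted wholly of unique words and were at 0 in ERCC6L2-/- cells. The last 2 lay 320000 and 430000 bases from the nearest array bin, and the nearest listed ERCC6L2-/- base was 1708190 and 1603190 bases away. Windows of the same cluster were counted separately. Thus chr10:41839001-41842000 and chr16:34620001-34626000 gave 3 windows each, and the shares above rest on fewer places than windows. In the 13 unique pileups above 0 in both groups the median ratio was 0.443.

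Many pileups were copies of each other, so they are not independent places. Windows that shared at least 50% of their words of 50 bases were joined into families, and 32 families held 202 of the 390. The largest had 45 of the 46 pileups of chromosome 7, spread along the array, with control means of 501 to 1560 and ratios of 0.356 to 0.673. Its median ratio of 0.572 was near the 0.575 of the other windows. The chromosome 7 cluster with most windows, chr7:59163001-59168000, belonged to it and had 3 windows, with averages of 561 and 297 and a ratio of 0.529. The families next in size were also on 1 chromosome each, of which chromosome 9 had 32 windows, chromosome 11 had 29 and chromosome 10 had 21.

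Of the 32 families, 7 spanned several chromosomes, and 4 of these were higher in ERCC6L2-/- than in control cells. They were picked out after their values were seen. In 3 of them the ratios were 1.29 or more, and each of these had 1 window on chromosomes 1, 5 and 19, whose arrays are related in sequence. The first family had control means of 575, 563 and 627 reads per base and ERCC6L2-/- means of 804, 782 and 873, giving ratios of 1.40, 1.39 and 1.39. The second had ratios of 1.36, 1.32 and 1.30, and the third 1.29, 1.30 and 1.32. Their neighbours within 50 kb had medians of 0.684 to 0.711, so these windows lay above 1 among neighbours that were below it on the deposited scale. The summit sequence of each family was identical on the 3 chromosomes, with 0 of 171 bases different, and no word of 150 bases in these windows was unique. Such copies share reads and cannot be told apart, and the 9 windows amount to at most 3 sequences. The summit sequence of the third family ends in the same bases with which that of the second begins. Those families are therefore not fully separate either. The fourth family, at chr5:49465001-49466000 and chr19:27065001-27066000, had ratios of 1.02 and 1.04 against neighbours at 0.708 and 0.701.

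A further 2 families on the same chromosomes did not share this direction. One, at chr1:123195001-123196000 and its copies on chromosomes 5 and 19, had ratios of 0.594, 0.615 and 0.600. The other, at chr1:124054001-124055000 and its copy on chromosome 5, had 0.650 and 0.686. Altogether 18 pileups were higher in ERCC6L2-/- than in control cells, with 7 from chromosome 1, 5 from chromosome 5, 4 from chromosome 19 and the other 2 from chromosome 4. No window of a large cluster was among them, and in other windows 2.31% had a ratio above 1. The highest ratio of a cluster was the 1.40 at chr1:124377001-124378000.

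At the opposite end, the lowest ratio above 0 was that of chr11:53986001-53988000, 2 windows that overlapped a 100-base gap. Control means were 792 and 2233 reads per base and ERCC6L2-/- means 81.8 and 43.3. Its ratio of 0.0413 was far below the 0.552 of the chromosome, where the 32 other pileups had a median of 0.580. The control summit there had 25283 reads at chr11:53987023, and the same base had 0 in ERCC6L2-/- cells, whose highest value in the cluster was 333. Unlisted bases were counted as 0, and whether all bases of these 2 windows were listed in the knockout was not tested.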

How the data were processed

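CENP-B ChIP-seq coverage of control and ERCC6L2-/- U2OS cells was used, with 3 immunoprecipitates per genotype pooled in the files and 1 input per genotype not used here. Reads were checked with FastQC, trimmed with Trim Galore and mapped with Bowtie2, per the submitters' processing notes. Per the paper, peaks were called with MACS2, filtered at a stringent false discovery rate and merged over replicates with MSPC. The authors deposited the coverage signal inside these merged peaks, in whole reads per base, over intervals of equal value. Tool versions, treatment of reads that map to several places, removal of duplicates and scaling for depth are not given in the sources used here. The build is GRCh38 (hg38).

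Intervals were read as closed and counted from 1, unlisted bases were 0, and window means were taken over all 1000 bases (numpy 2.4.6 and pandas 2.3.3 under Python 3.11.15). The summed coverage on chromosomes 1 to 22 was 4220860898 read bases in control and 1970452457 in ERCC6L2-/- cells. Library depths are not known, and no error between replicates could be computed. Arrays, gaps and boxes came from the GRCh38 reference, and words were counted over 194 sequences with numba 0.67.0. KO/WT under 0.5 or over 2 was called among windows above 0 in both groups, with no test. Window and cluster functions were checked on simulated data. The pileups, lists and rules were chosen with earlier results of these data known. Places named in the text are the 10 clusters of highest control mean, the largest cluster on each of the 3 chromosomes with most pileups, every cluster outside the arrays, those of lowest and highest ratio, the 5 windows on either side of the threshold, and any gene that a named cluster overlaps. Others were named after their values were seen. Figures were drawn with matplotlib 3.10.9.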

Additional observations from a re-analysis of the deposited data

Results flagged for a closer look

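Coverage outside chromosomes 1 to 22 entered none of the comparisons. In it, 42 windows of 1 kb reached 500 reads per base in control cells, on 17 of the 19 such sequences with control coverage, and 17 did so in ERCC6L2-/- cells. These values were flagged because they come from data that were not otherwise used, and they were not compared further.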

How the results depend on the processing

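With 1 pooled value per group, no replicate could be left out. No paired analysis was possible because each genotype's 3 replicates were deposited as 1 value. The number of pileups (390) was 1903 at a threshold of 250 reads, 176 at 1000 reads and 134 with the window median, and their share of control coverage (18.4%) was 30.0% at 250 reads and 11.6% with the window median. The median KO/WT ratio (0.535) turned above 1, to 1.15, when scaled to totals. It was 0.790 when scaled to the other windows, 0.593 at 250 reads, 0.443 at 1000 reads, 0.596 without the clusters of at least 5 windows and 0.467 with values at 0 counted as a ratio of 0. Divided by the median of other windows (0.832), it was 0.918 at 250 reads, 0.690 at 1000 reads, 0.750 from summed coverage, 0.927 without the large clusters and 0.871 with values at 0 counted. It stayed under 1 in the 10 alternatives that could move it, since the 2 scalings multiply all windows alike. Every setting pooled the chromosomes, so none compared pileups with windows of their own chromosome. In that comparison 156 of 325 pileups were below the median of the other windows. The ratio to neighbours within 50 kb had a median of 1.02 in the 250 pileups with enough neighbours. The share in arrays (95.9%) was 91.0% with at least 50 boxes per bin and 93.2% at 1000 reads. The share within 10 kb of a gap (35.4%) was 18.8% without the large clusters, 13.9% at 250 reads and 58.0% at 1000 reads. Leaving out the large clusters, counting values at 0 and all 3 settings for gaps were chosen after seeing the data. The cause of these shifts was not tested. The number of clusters (191) was 221 when joined within 1 kb and 130 within 50 kb.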
